A study of Mus musculus with 6 samples.

Results

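The renin-angiotensin system was examined in heart ventricles of male mice fed finerenone, through 9 listed genes chosen by name: Agt, Ren1, Ace, Agtr1a, Agtr1b, Agtr2, Mas1, Atp6ap2 and Enpep. A gene was taken as measured where a probe set of the array carried its symbol and no other, and 8 of the 9 met this, out of 30142 genes named in the same way. No probe set carried Ren1 as its single symbol, so renin itself was not analysed here. Finerenone replicates 1 to 3 came from mice that ate chow with 100 ppm of finerenone, a non-steroidal antagonist of the mineralocorticoid receptor, from 4 weeks of age at weaning. Untreated replicates 1 to 3 came from mice on the same chow without the drug. All 6 mice were 20 weeks old, lacked dystrophin and had a single functional utrophin allele (utrn+/-; mdx, called Het) on a C57BL/10 background, and were assigned to the groups at random, per the labels. Neither group was free of the dystrophic genotype, so the comparison is of drug against no drug within diseased hearts.

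In the renin-angiotensin system the liver protein angiotensinogen (Agt) is cut by renin (Ren1) to angiotensin I, which angiotensin-converting enzyme (Ace) trims to angiotensin II. Angiotensin II acts on type 1 receptors (Agtr1a and Agtr1b in rodents) to constrict vessels and to drive aldosterone release from the adrenal gland, and aldosterone in turn activates the mineralocorticoid receptor that finerenone blocks. Type 2 receptors (Agtr2) and the angiotensin-(1-7) receptor Mas1 are generally described as opposing these actions, and aminopeptidase A (Enpep) turns angiotensin II into angiotensin III.

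Values below are log2 signals, with 1 array for each mouse, and every difference is finerenone minus untreated with its standard error (SE) from limma, a linear model fitted over all 30142 genes. None of the 8 genes differed between finerenone and untreated hearts at an adjusted p below 0.05, and 0% of all genes did (limma, 0 of 30142). At an unadjusted limma p below 0.05 there were 0 of the 8 and 7.81% of all genes (2353 genes). The groups did not overlap for 0 of the 8, against 12.4% of all genes. Of the 8 differences 4 were above 0 and 4 below, from -0.25 for Agt to 0.23 for Ace, with a median of 0.01 beside 0.03 over all genes. Without untreated replicate 1 the median of the 8 was -0.041. Of all 30142 genes 17543 (58.2%) had a higher mean in finerenone hearts. Counts of higher and lower means in the lists below are to be read beside that share. With 3 arrays against 3, an exact permutation test cannot give a p below 0.1, and for these 8 genes it gave 0.2 (Ace) to 1 (Agtr2), two-sided.

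One array stood apart. In untreated replicate 1 all 7 measured hepatocyte markers had their highest signal, with a list mean of 9.53, against 4.74 to 4.97 in the finerenone arrays and 4.88 and 4.68 in the other untreated ones. The albumin gene Alb measured 16.69 there and 4.10 to 4.38 elsewhere, so the difference of each of the 8 genes is also given without that array. Cardiomyocyte markers averaged 17.17 to 17.27 in finerenone and 17.09 to 17.41 in untreated hearts, near the top of the scale (highest value 19.93). Of the 9 cardiomyocyte markers 5 had a higher and 4 a lower mean in finerenone hearts, with a median of 0.0010 (-0.091 without untreated replicate 1). That 0.0010 is the difference of Tnnt2, which measured 19.92 to 19.93 on every array, at the top of the scale. The median therefore cannot show equal cardiomyocyte content. The 2 with the smallest p, the sarcomere gene Mybpc3 and the calcium release channel Ryr2, both differed by -0.20 (SE 0.26 and 0.28), and with single arrays left out Mybpc3 ran from -0.48 (without untreated replicate 1) to -0.012 and Ryr2 from -0.46 to 0.020. Atrial and conduction markers (7 genes) averaged 7.30 to 7.68 in finerenone and 7.22 to 7.48 in untreated hearts, and 6 of them had a higher finerenone mean (Stard10 by 0.33 ± 0.16, or 0.17 without untreated replicate 1, and Sln by 0.30 ± 0.15). Sln was dim, above only 34.1% to 53.2% of the negative control probe sets. Nppa measured 17.85 to 19.59 across arrays, and Stard10, the next brightest of this list, 8.52 to 9.33. The atrial list mean is therefore no typical level of these markers. The 6 arrays correlated between 0.989 and 0.994 over all transcript clusters.

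Negative control probe sets give a reference for background, and the 8 genes fell into different zones against them. These controls are no sharp floor, since their 95th percentile was 8.35 to 8.73 across arrays. Their median lay above the median of all transcript clusters (4.43 to 4.48), and only 14006 of 30142 genes had a mean at or above it. Ace, Agtr1a, Atp6ap2 and Enpep lay above 85.3% to 98.2% of the 5222 negative controls in every array, with Enpep the lowest of them at 85.3% to 91.9%. Agt and Agtr1b lay above 53.1% to 72.1% of them. Agtr2 and Mas1 lay above only 18.8% to 31.3%, below the negative control median on every array (5.04 to 5.33 across arrays). For Agtr2 and Mas1 the arrays therefore gave no signal that could be told from background in either group. For Agt and Agtr1b the signal was close to the negative control median.

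**Figure D1:**
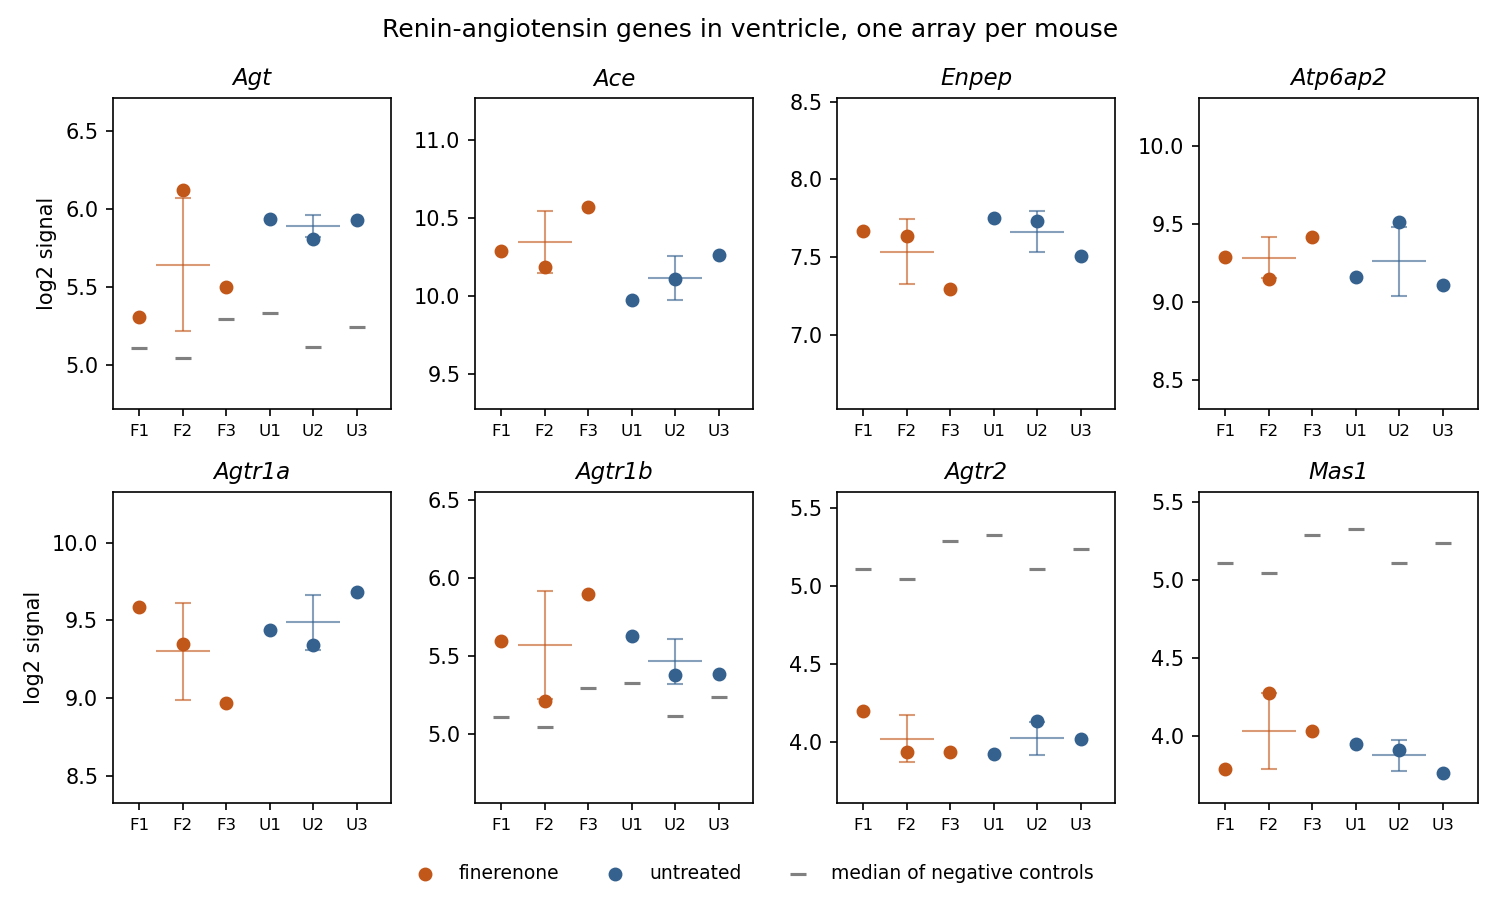
Log2 signal (vertical axes, each spanning 2 log2 units) of the 8 measured genes in finerenone arrays F1 to F3 and untreated arrays U1 to U3; points are single mice, crossed bars the group mean ± SD, and grey dashes the median of negative controls where it falls within the panel. The groups overlap in every panel, and Agtr2 and Mas1 lie below the grey dashes.

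Agt, the precursor of all angiotensins, measured 5.30, 6.12 and 5.50 in finerenone hearts, against 5.94, 5.81 and 5.93 in untreated hearts. Finerenone replicate 2 was above every untreated array while the other 2 finerenone arrays were below every one, so the groups overlapped through a single array. The means were 5.64 ± 0.43 and 5.89 ± 0.07 (SD, n = 3 each), a difference of -0.25 ± 0.21 (SE), with a 95% interval of -0.75 to 0.26 and an adjusted p = 0.819 in limma. Leaving out finerenone replicate 2 gave -0.49 and an adjusted p = 0.870 in limma. The groups did not overlap in that set, as for 20.8% of all genes. Leaving out finerenone replicate 1 gave -0.08.

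Agt is a liver product, and the part of liver RNA in the Agt values was not tested. Untreated replicate 1, the array with the hepatocyte signal, measured 5.94 for Agt, inside the range of the other 5 arrays. Leaving that array out gave an Agt difference of -0.22. Kininogen (Kng1), also a liver product, measured 3.62, 3.60 and 3.62 in finerenone hearts, against 5.41, 3.58 and 3.46 in untreated hearts. Its difference was -0.54 with all arrays and 0.09 without untreated replicate 1. Ahsg and Ttr, the hepatocyte markers with the smallest p, differed by -1.42 ± 0.79 and -1.09 ± 0.83 (SE), and the median of that list was -1.09 with all arrays and 0.07 without untreated replicate 1.

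**Figure D2:**
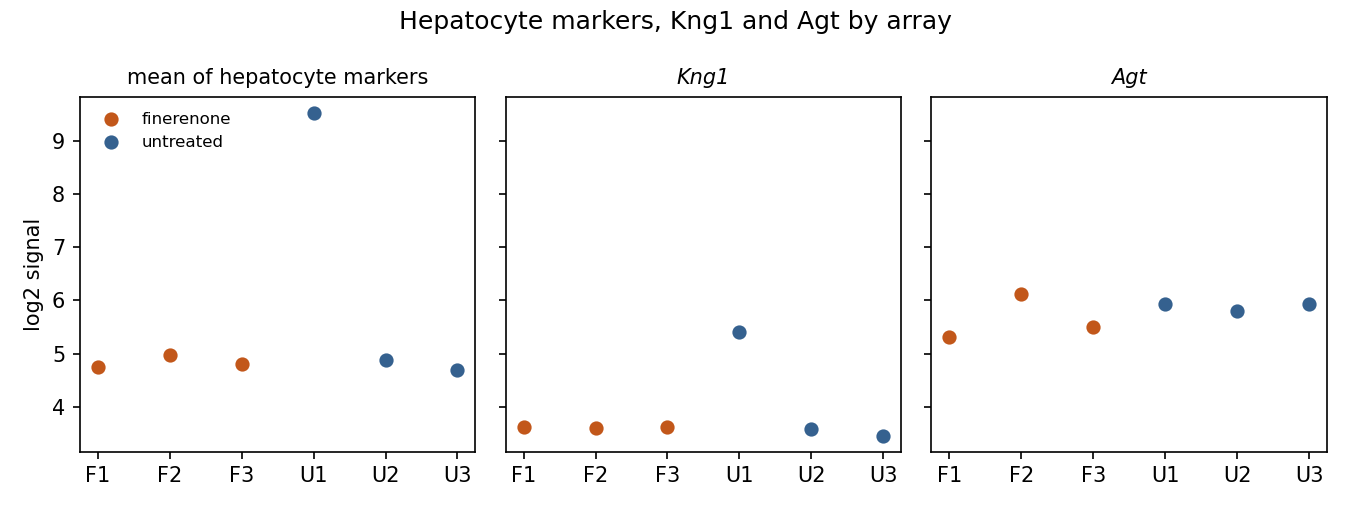
Log2 signal (shared vertical axis) of the mean of 7 hepatocyte markers, of Kng1 and of Agt in finerenone arrays F1 to F3 and untreated arrays U1 to U3, 1 point per mouse. In U1 the hepatocyte mean (9.53) and Kng1 (5.41) are above the other arrays, and Agt (5.94) is within their range.

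Fat cells are another known source of angiotensinogen. Of 7 adipocyte markers 4 had a higher and 3 a lower mean in finerenone hearts, and the list averaged 5.17 to 5.20 in finerenone and 5.16 to 5.38 in untreated hearts. Adiponectin (Adipoq) measured 3.92, 4.12 and 4.11 in finerenone hearts, against 4.27, 4.63 and 4.24 in untreated hearts, and differed by -0.33 ± 0.13 (SE). Perilipin 1 (Plin1), which coats fat droplets, differed by -0.27 ± 0.10. Both lay below the negative control median on every array, and their part in the Agt values was not tested. In bulk tissue, fewer cells of a type and less RNA per cell cannot be told apart.

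Ace, the peptidase of endothelial surfaces that makes angiotensin II and also degrades bradykinin, measured 10.28, 10.18 and 10.57 in finerenone hearts, against 9.97, 10.11 and 10.26 in untreated hearts. Only finerenone replicate 2 and untreated replicate 3 overlapped. The means were 10.35 ± 0.20 and 10.11 ± 0.14 (SD, n = 3 each), a difference of 0.23 ± 0.13 (SE), or 1.17-fold with a 95% interval of 0.944-fold to 1.46-fold. The adjusted p was 0.717 in limma. The smallest adjusted p over all genes was 0.597, and Ace had the smallest unadjusted p of the 8 genes (0.123 in limma).

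The difference in Ace depended on single arrays. It shrank to 0.12 when finerenone replicate 3 was left out and to 0.16 when untreated replicate 1 was. Leaving out finerenone replicate 2 gave 0.31 and leaving out untreated replicate 3 gave 0.30, and in both of those sets the Ace groups did not overlap, as for 20.8% and 21.4% of all genes.

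Endothelial markers, the genes of the cell type that carries most vascular Ace, lay on the other side of 0. All 10 measured had a lower mean in finerenone hearts, with a median of -0.39, where 58.2% of all genes had a higher one. The list averaged 10.83 to 11.12 in finerenone and 11.19 to 11.70 in untreated hearts. None of the 10 passed (limma, 0 at an adjusted p below 0.05, 2 at an unadjusted p below 0.05, where 7.81% of all genes were). The VEGF receptor 2 gene Kdr differed by -0.86 ± 0.27 (-0.59 without untreated replicate 1) and the endothelial phosphatase Ptprb by -0.48 ± 0.19 (SE; -0.32 without it). Without untreated replicate 1 the median was -0.26. Macrophages can also carry Ace, and all 10 of their markers had a higher mean in finerenone hearts, with a median of 0.28 that lay between 0.14 (without finerenone replicate 1) and 0.41 (without finerenone replicate 2) and was 0.16 without untreated replicate 3 (Fcgr1 by 0.60 ± 0.20 and Lyz2 by 0.75 ± 0.31). That list averaged 9.36 to 9.76 in finerenone and 9.07 to 9.52 in untreated hearts. The part of these cell types in the Ace values was not tested.

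RefSeq lists 2 start sites for Ace on mouse assembly GRCm38.p6, the upstream one of the broadly expressed form and an internal one known from testis, while the array gave a single Ace value that does not separate them. The windows from 250 bases before to 50 bases after each start are shown because corticosteroid receptors, the mineralocorticoid receptor among them, bind DNA at inverted repeats of the hexamer AGAACA (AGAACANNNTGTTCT). The upstream window is chr11:105967698-105967997 and the internal one chr11:105974939-105975238, both on the plus strand, and neither held the hexamer on either strand, so no letter is in capitals.
Ace upstream start: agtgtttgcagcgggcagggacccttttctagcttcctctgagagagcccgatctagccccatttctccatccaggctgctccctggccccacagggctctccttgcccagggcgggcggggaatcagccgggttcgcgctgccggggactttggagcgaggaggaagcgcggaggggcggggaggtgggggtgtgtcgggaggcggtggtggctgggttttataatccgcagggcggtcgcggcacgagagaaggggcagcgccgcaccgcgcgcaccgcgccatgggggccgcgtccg
Ace internal start: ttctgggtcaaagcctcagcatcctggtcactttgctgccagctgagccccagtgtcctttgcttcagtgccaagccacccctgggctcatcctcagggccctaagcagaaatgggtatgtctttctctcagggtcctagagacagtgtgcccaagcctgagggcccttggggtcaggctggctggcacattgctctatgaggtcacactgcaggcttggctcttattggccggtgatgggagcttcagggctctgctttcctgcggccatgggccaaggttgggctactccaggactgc
Of the 9 windows of the 8 listed genes with an entry (Ren1 included, Agtr1a not), 1 held the hexamer, against 19.0% of 32851 windows of the same length, and 0 held the full repeat, which occurred in 3 of the 32851. These letters describe the windows and no binding.

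Atp6ap2 was the gene with the hexamer. It encodes the prorenin receptor, which is also an accessory subunit of the proton pump of acidic vesicles. Its window is chrX:12587509-12587808 on the plus strand of GRCm38.p6, and the match, read as TGTTCT and printed in capitals, begins 131 bases before the start.
Atp6ap2: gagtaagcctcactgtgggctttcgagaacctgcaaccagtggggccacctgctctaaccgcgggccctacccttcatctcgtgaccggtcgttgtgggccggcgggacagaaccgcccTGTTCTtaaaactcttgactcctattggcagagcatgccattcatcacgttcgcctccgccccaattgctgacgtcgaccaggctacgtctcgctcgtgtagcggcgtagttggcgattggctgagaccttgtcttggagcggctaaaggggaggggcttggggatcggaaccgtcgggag
Its signal was 9.29, 9.15 and 9.42 in finerenone hearts, against 9.16, 9.52 and 9.11 in untreated hearts. The untreated arrays spanned the whole finerenone range. The difference was 0.02 ± 0.14 (SE), 1.02-fold with a 95% interval of 0.809-fold to 1.28-fold, and the adjusted p was 0.987 in limma. Its sign turned when finerenone replicate 3 (-0.04), untreated replicate 1 (-0.03) or untreated replicate 3 (-0.05) was left out.

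Agtr1a, the main type 1 receptor of the mouse, measured 9.58, 9.35 and 8.97 in finerenone hearts, against 9.44, 9.34 and 9.69 in untreated hearts. Finerenone replicate 3 was the lowest array and untreated replicate 3 the highest, and the others overlapped. The means were 9.30 ± 0.31 and 9.49 ± 0.18 (SD, n = 3 each), a difference of -0.19 ± 0.18 (SE) with a 95% interval of -0.61 to 0.24 (adjusted p = 0.842 in limma). With single arrays left out it ran from -0.33 (without finerenone replicate 1) to -0.02 (without finerenone replicate 3), and it was -0.09 without untreated replicate 3 and -0.21 without untreated replicate 1.

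Agtr1b, the second rodent type 1 receptor gene, whose coding sequence closely resembles that of Agtr1a, measured 5.60, 5.21 and 5.90 in finerenone hearts, against 5.63, 5.38 and 5.39 in untreated hearts. Finerenone arrays held both the lowest and the highest value. The difference was 0.11 ± 0.18 (SE; 95% interval -0.34 to 0.55, adjusted p = 0.924 in limma) and ran from -0.06 without finerenone replicate 3 to 0.29 without finerenone replicate 2. The deposited values do not show how far probes of the pair respond to each other's transcript. In finerenone replicate 3 Agtr1a had its lowest signal of the 6 arrays and Agtr1b its highest.

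Agtr2 measured 4.19, 3.93 and 3.93 in finerenone hearts, against 3.92, 4.13 and 4.02 in untreated hearts, a difference of -0.003 ± 0.11 (SE). Mas1 measured 3.79, 4.27 and 4.03 in finerenone hearts, against 3.95, 3.91 and 3.76 in untreated hearts. Finerenone replicates 2 and 3 were above the untreated arrays and finerenone replicate 1 was not. The difference in Mas1 was 0.16 ± 0.14 (adjusted p = 0.830 in limma), and with single arrays left out it ran from 0.034 (without finerenone replicate 2) to 0.28 (without finerenone replicate 1), where the groups did not overlap, as for 21.4% of all genes in that set. Since both genes lay below the negative control median, these values cannot be told apart from background signal.

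Enpep, the membrane peptidase of pericytes and epithelia that makes angiotensin III, measured 7.67, 7.64 and 7.30 in finerenone hearts, against 7.75, 7.73 and 7.51 in untreated hearts. In both groups replicate 3 was the lowest array. The difference was -0.13 ± 0.13 (SE), 0.914-fold with a 95% interval of 0.734-fold to 1.14-fold (adjusted p = 0.853 in limma). It came to -0.01 when finerenone replicate 3 was left out and to -0.20 when finerenone replicate 1 was. Without untreated replicate 3 it was -0.21 and the groups did not overlap, as for 21.4% of all genes in that set.

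Pericytes and smooth muscle carry Enpep and Agtr1a in many vascular beds, and 10 of their 12 markers had a lower mean in finerenone hearts, with a median of -0.18. That list averaged 8.87 to 9.04 in finerenone and 8.99 to 9.28 in untreated hearts. The PDGF receptor Pdgfrb differed by -0.55 ± 0.16 and the pericyte gene Higd1b by 0.31 ± 0.11 (SE), in opposite directions. Fibroblasts are another site of type 1 receptors. Of their 10 measured markers 7 had a higher mean (median 0.10), led by the microfibril gene Mfap5 at 0.54 ± 0.14 and dermatopontin (Dpt) at 0.52 ± 0.27 (0.35 without untreated replicate 1), and the list averaged 10.82 to 11.27 in finerenone and 10.70 to 11.18 in untreated hearts. Leaving out finerenone replicate 1 moved the fibroblast median to -0.0098, and leaving out untreated replicate 3 moved it just below 0 as well. The part of these cells in the Agtr1a and Enpep values was not tested.

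**Figure D3:**
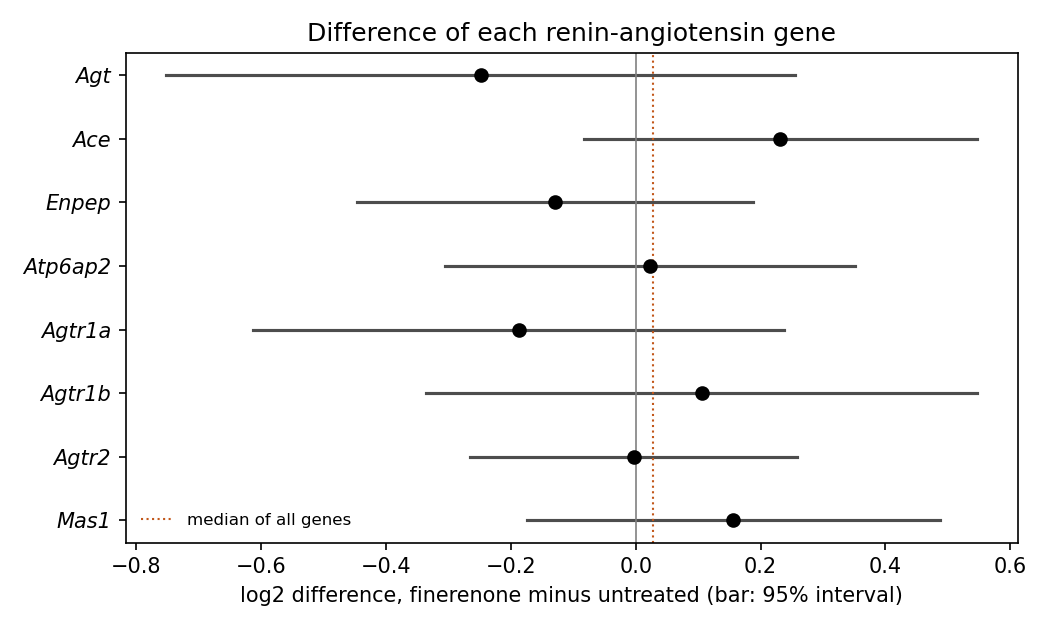
Log2 difference, finerenone minus untreated (horizontal axis), of the 8 genes from limma over 6 arrays; bars are 95% intervals and the dotted line is the median over all genes (0.03). Every interval includes 0, from Ace (-0.08 to 0.55) to Agt (-0.75 to 0.26).

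The intervals show what sizes of change the 6 arrays leave possible. SEs of the 8 genes ran from 0.11 (Agtr2) to 0.21 (Agt), where the median SE over all genes was 0.12, and 7 of the 8 were above it. For the 4 genes with the highest share of negative controls below them, the intervals ran from 0.944-fold to 1.46-fold for Ace, 0.654-fold to 1.18-fold for Agtr1a, 0.809-fold to 1.28-fold for Atp6ap2 and 0.734-fold to 1.14-fold for Enpep. A p above the threshold does not show equal expression in the 2 groups.

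**Figure D4:**
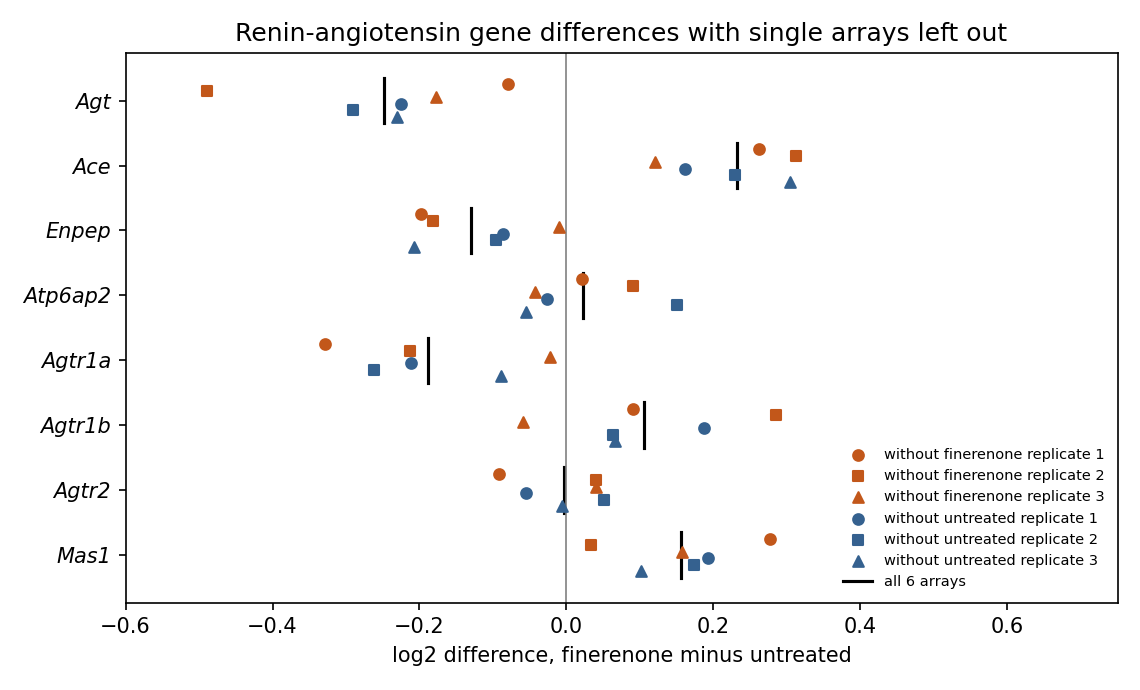
Log2 difference, finerenone minus untreated (horizontal axis), of the 8 genes with each array left out in turn (points) and with all 6 arrays (black lines). Agt, Ace, Enpep, Agtr1a and Mas1 stay on 1 side of 0 in all 6 sets, while Atp6ap2, Agtr1b and Agtr2 cross it.

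With 1 array left out the background also shifted, and the counts among the 8 genes are set against it here. At an unadjusted limma p below 0.05 there was 1 of the 8 without finerenone replicate 2 (Agt; 5.61% of all genes) and 0 of the 8 in each other set, where 6.26% of all genes were called without finerenone replicate 1, 9% without finerenone replicate 3, 6.43% without untreated replicate 1, 9.25% without untreated replicate 2 and 6.38% without untreated replicate 3. Groups that did not overlap occurred for 1 of the 8 without finerenone replicate 1 (Mas1; 21.4% of all genes), for 2 without finerenone replicate 2 (Agt and Ace; 20.8%) and for 2 without untreated replicate 3 (Ace and Enpep; 21.4%). They occurred for 0 of the 8 without finerenone replicate 3 (25.7% of all genes), without untreated replicate 1 (22.3%) and without untreated replicate 2 (25%). The share among the 8 was thus at most 2 of 8. With the array of high hepatocyte signal (untreated replicate 1) left out, the difference was 0.19 for Agtr1b, -0.055 for Agtr2, 0.19 for Mas1 and -0.087 for Enpep.

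Other enzymes that make or break angiotensins were counted next. Of 17 listed genes 14 were measured, 8 with a higher and 6 with a lower mean in finerenone hearts, with a median of 0.06 (0.0049 without untreated replicate 1). None passed (limma, 0 at an adjusted and 0 at an unadjusted p below 0.05, where 7.81% of all genes had the latter). The groups did not overlap for 3 of the 14, against 12.4% of all genes. Prep, prolyl endopeptidase, which can release angiotensin-(1-7), measured 11.14, 11.15 and 11.10 in finerenone hearts, against 10.37, 10.90 and 10.95 in untreated hearts. All 3 finerenone arrays were above all untreated ones, and the difference was 0.39 ± 0.16 (SE; adjusted p = 0.641 in limma), or 0.20 without untreated replicate 1. Ctsa, the lysosomal carboxypeptidase cathepsin A, measured 10.28, 10.18 and 10.32 in finerenone hearts, against 9.96, 10.15 and 10.05 in untreated hearts, a difference of 0.21 ± 0.09 without overlap (0.16 without untreated replicate 1). Erap1, an aminopeptidase of the endoplasmic reticulum, differed by -0.15 ± 0.08, also without overlap (-0.10 without untreated replicate 1).

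Mast cells bring their own angiotensin-forming chymases. Of 8 mast cell markers 4 had a higher and 4 a lower mean, and the list averaged 5.28 to 5.69 in finerenone and 5.31 to 5.89 in untreated hearts. The list median was -0.03. It was -0.44 where only genes with a mean of at least 6 were kept, which left Cma1, Cpa3 and Mcpt4. Mcpt4, a mouse chymase that is on the enzyme list as well, measured 6.93, 7.53 and 6.43 in finerenone hearts, against 7.88, 7.32 and 7.01 in untreated hearts. It differed by -0.44 ± 0.33 (SE) and by -0.21 without untreated replicate 1, with wide overlap. Ms4a2, a chain of the IgE receptor, differed by 0.15 ± 0.12 at signals below the negative control median.

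Of 5 genes for other peptide receptors and receptor-binding proteins, all measured, 3 had a higher and 2 a lower mean (median 0.04). None of the 5 passed, with 0 at an unadjusted limma p below 0.05 (7.81% of all genes) and 0 without overlap (12.4% of all genes). Gabarap, a trafficking protein that binds the type 1 receptor, differed by 0.16 ± 0.09 (SE), and Agtrap, which promotes internalisation of that receptor, by 0.10 ± 0.09. Mtus1, which includes the type 2 receptor-binding protein ATIP, differed by -0.06 ± 0.09.

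Genes that carry or end the signal of the type 1 receptor gave 6 higher and 9 lower means among 15 measured of 18 listed, with a median of -0.02. None passed in limma, 2 of the 15 had an unadjusted p below 0.05 (both lower), against 7.81% of all genes, and the groups did not overlap for the same 2, against 12.4% of all genes. These shares lie near those of all genes. Rgs2, which shuts off the Gq protein that couples to this receptor, measured 10.15, 10.16 and 10.10 in finerenone hearts, against 10.70, 11.25 and 10.48 in untreated hearts. The finerenone arrays lay within a narrow range below every untreated array, and the difference was -0.67 ± 0.19 (SE; adjusted p = 0.597 in limma; -0.72 without untreated replicate 1). Plcb1, a phospholipase that Gq activates, measured 7.03, 7.21 and 7.05 in finerenone hearts, against 7.91, 7.22 and 7.57 in untreated hearts. The highest finerenone and the lowest untreated array were almost level, and the difference was -0.47 ± 0.18 (adjusted p = 0.614 in limma), or -0.29 without untreated replicate 1. Gna12, a G protein alpha chain of the G12/13 class, differed by -0.29 ± 0.15 with overlap (-0.44 without untreated replicate 1).

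**Figure D5:**
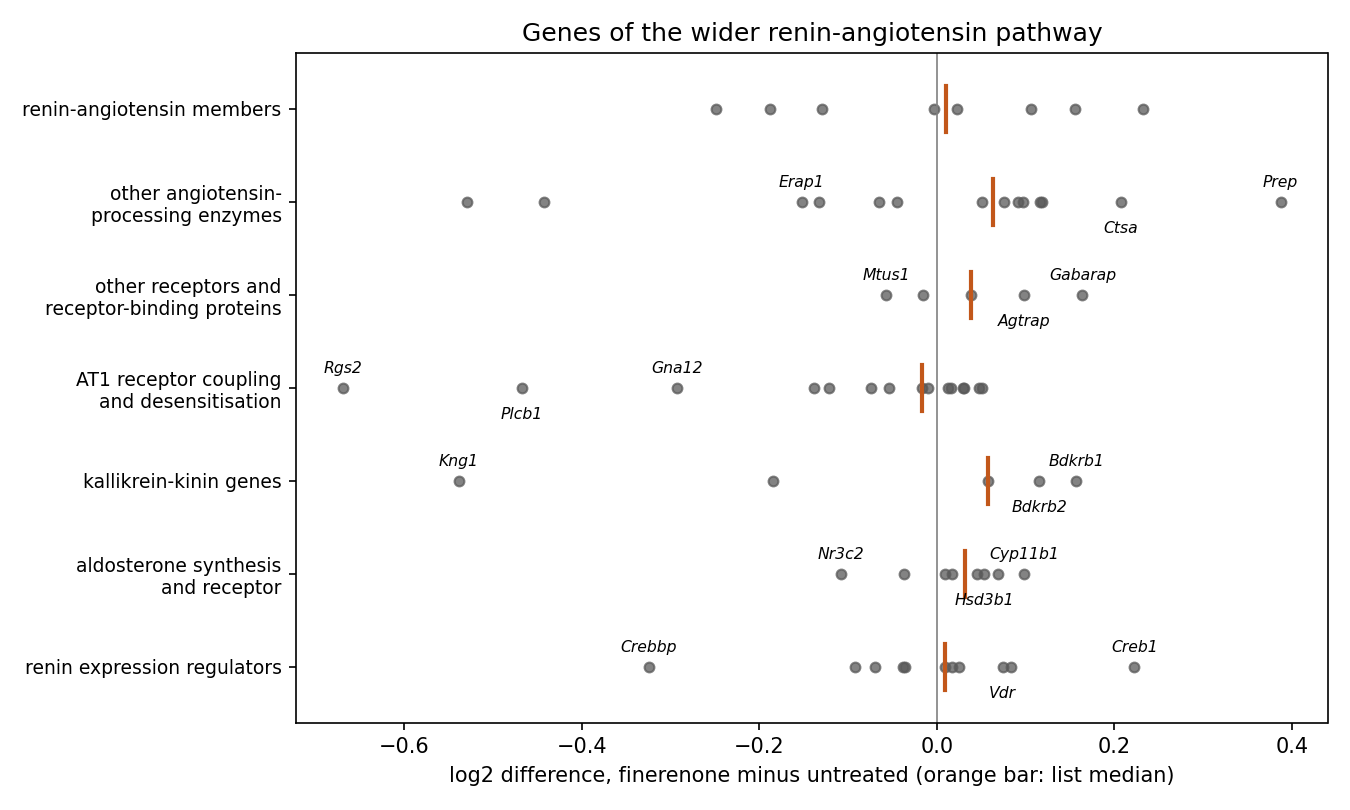
Log2 difference, finerenone minus untreated (horizontal axis), of each measured gene (grey points) in 7 lists of the wider pathway, with list medians as orange bars; the 3 genes with the smallest limma p of each list other than the 8 genes are labelled. List medians lie between -0.02 and 0.06, and Rgs2 (-0.67) and Prep (0.39) are the outermost points.

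Kinins are also substrates of Ace. Of 7 listed kallikrein-kinin genes 5 were measured, 3 with a higher and 2 with a lower mean. The median was 0.06, or 0.11 without untreated replicate 1 and -0.014 without untreated replicate 3. Of the 5 genes 0 passed and 0 had an unadjusted limma p below 0.05, against 7.81% of all genes. The inducible bradykinin receptor Bdkrb1 measured 3.89, 4.01 and 3.90 in finerenone hearts, against 3.68, 3.82 and 3.83 in untreated hearts, without overlap, and differed by 0.16 ± 0.08 (SE). The constitutive receptor Bdkrb2 differed by 0.12 ± 0.10. Both receptors lay below the negative control median on every array. Bdkrb1 was the 1 gene of the 5 without overlap, against 12.4% of all genes.

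Aldosterone synthesis and its receptor gave 6 higher and 2 lower means among 8 genes (median 0.03). Of these 0 were past the threshold and 0 had an unadjusted limma p below 0.05, against 7.81% of all genes. The mineralocorticoid receptor Nr3c2 measured 7.70, 7.65 and 7.68 in finerenone hearts, against 7.84, 7.73 and 7.78 in untreated hearts. All finerenone arrays were lower by a small margin, and the difference was -0.11 ± 0.07 (SE; adjusted p = 0.767 in limma). The groups did not overlap for 2 of the 8 genes (Nr3c2 and Cyp11b1), against 12.4% of all genes. Cyp11b1, the enzyme that makes corticosterone in the adrenal gland, and Hsd3b1, an earlier enzyme of steroid synthesis, differed by 0.10 ± 0.07 and 0.05 ± 0.11 at signals below the negative control median.

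Genes listed as regulators of renin expression were all measured (11 genes, 6 with a higher and 5 with a lower mean, median 0.01). Of these 0 passed and 0 had an unadjusted limma p below 0.05, against 7.81% of all genes. The groups did not overlap for 1 of the 11, against 12.4% of all genes. The coactivator Crebbp differed by -0.32 ± 0.15 (SE; -0.20 without untreated replicate 1), the cAMP-responsive factor Creb1 by 0.22 ± 0.15 (0.38 without it) and the vitamin D receptor Vdr by 0.07 ± 0.08. Kidney markers, which would accompany renal renin, averaged 4.18 to 4.34 in finerenone and 4.17 to 4.42 in untreated hearts over 8 genes. Among them the endocytic receptor Lrp2 differed by -0.59 ± 0.37 and the tubule gene Umod by 0.10 ± 0.10. Vdr and Umod lay below the negative control median on every array.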

How the data were processed

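Total RNA of ventricles from 6 male mice, 3 fed finerenone and 3 untreated, was hybridised to Affymetrix arrays, 1 per mouse. The authors deposited log2 values per probe set. The submitters' processing notes name RMA, which corrects background, brings arrays to 1 distribution and summarises probes, together with Transcriptome Analysis Console and Affymetrix Expression Console. Program versions and annotation build were not given in the sources used here. Precision is limited by the number of arrays.

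Of 72688 probe sets 65956 were transcript clusters, and 30604 of these had a single symbol in the platform annotation. Symbols were updated by Entrez identifier to RefSeq (GRCm38.p6), and where clusters shared a symbol (355 genes) the brightest by mean over 6 arrays was kept, leaving 30142 genes without a filter on dim signal. The test was lmFit and eBayes of limma 3.58.1 (R 4.3.3, two-sided, no covariate), with Benjamini-Hochberg adjustment over all genes, after the fit was tested on simulated data. The 9 genes and the lists were chosen with earlier results of these data known, so no list was tested as a set. Besides the 9, the 3 genes with the smallest p were named per pathway list and 2 per marker list. Alb, Tnnt2 and Nppa were added after their values were seen. Cma1, Cpa3, Cidea and Aqp2 were named only as genes left by a filter on dim signal. Genes without a probe set of a single symbol (among them Ren1, Lnpep, Ctsd, Arrb2, Grk2, Rock2, Klk1b3, Klkb1, Egfl7, Pdgfra, Cfd, Serpina1a) were not analysed here. Same-numbered arrays of the 2 groups were checked for shared deviations and treated as unpaired. Alternatives were other normalizations, filters, priors, array weights, a replicate block and single arrays left out.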

Additional observations from a re-analysis of the deposited data

How the results depend on the processing

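Under every alternative run, 0 genes and 0 of the 8 genes passed in limma with Benjamini-Hochberg adjustment, also over all 65956 transcript clusters or at an adjusted p below 0.1. The count at an unadjusted limma p below 0.05 was 1484 among 14006 genes at or above the negative control median and 1305 among 11356 with a mean of at least 6. Fewer genes were tested there, and both are larger shares than the 7.81% over all 30142 genes. When single arrays were left out, the count lay between 1691 and 2789. Of the 8 genes 0 to 1 then had an unadjusted p below 0.05, and 0 to 2 had groups that did not overlap. Atp6ap2 turned to -0.010 with quantile normalization and to -7.12e-05 with cyclic loess (the cause was not tested). Leaving out single arrays, where fewer samples remain, gave -0.055 to 0.15 for Atp6ap2, -0.060 to 0.29 for Agtr1b, -0.091 to 0.052 for Agtr2, -0.13 to 0.0042 for Mtus1, -0.043 to 0.14 for Hsd3b1, -0.89 to 0.094 for Kng1 and -0.46 to 0.020 for Ryr2.

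Quantile normalization moved the median of the 8 genes to -0.017 and that of the type 1 receptor coupling list to -0.084. Cyclic loess moved them to -0.010 and -0.081. Both filters on dim genes gave -0.053 for the 8 genes, of which Agtr2 and Mas1 (and at a mean of 6 also Agt and Agtr1b) left the test, and -0.11 for aldosterone synthesis, where 1 gene (Nr3c2) was left. At a mean of at least 6 the marker medians moved to -0.44 for mast cells and 0.095 for adipocytes. Only Cma1, Cpa3 and Mcpt4 were left of the mast cell list and only Cidea of the adipocyte list. The atrial and conduction median moved to 0.39, with only Nppa and Stard10 left. These medians therefore describe single genes more than cell types. Among genes at or above the negative control median the kidney marker median moved to -0.32, with only Lrp2 and Aqp2 left. Single arrays left out gave medians of -0.041 to 0.057 for the 8 genes, -0.11 to -0.028 for type 1 receptor coupling and -0.015 to 0.074 for other receptors and receptor-binding proteins. No other probe set of the 8 genes could be tried, since each has 1. The deviations of same-numbered arrays correlated at -0.15, 0.06 and 0.06, so the numbers were not taken as pairs. With the replicate number as a block, Ace differed by 0.23 with an adjusted p = 0.664 in limma, and the block changed no call.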
